A study of Mus musculus with 6 samples.

Results

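A group of 9 genes that erythroid cells (the red blood cell lineage) use was followed in RNA labelled as sorted bone marrow megakaryocytes (MKs, the cells that shed platelets). The genes were picked by symbol: *Slc4a1*, *Rhag*, *Epb42* and *Ermap* encode proteins of the red cell membrane, *Hba-a1*, *Hbb-bs* and *Hbb-bt* encode globins, *Klf1* encodes a transcription factor and *Epor* the erythropoietin receptor. These genes, and the other gene lists read below, were chosen with earlier results of these data known. All 9 were found among the 16579 genes of the table, and all 9 passed the filter on low counts that left 12256 tested genes. The 6 libraries came from 3-month-old mice, 3 labelled Becn1f/f, whose *Becn1* alleles carry loxP sites, and 3 labelled Becn1f/f;Pf4-iCre, which carry the same floxed alleles and a Cre recombinase under *Pf4* (platelet factor 4) control, meant to delete *Becn1* in the megakaryocytic lineage. The sex of these mice is not given in the sources used here, and where replicates were not separate mice the p-values measure only the spread between samples, which may be technical.

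Red cell precursors and MKs arise from a shared progenitor, and GATA1 drives gene programs of both. On the erythroid side, erythropoietin acting through its receptor keeps precursors alive, and KLF1 switches on globin and membrane genes. As the cells mature, they fill with hemoglobin, built from alpha and beta globin, and assemble a membrane whose anion exchanger, band 3, is anchored to the spectrin skeleton.

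Rounded counts summed to 16467560 to 17156728 per library, and no pair of libraries of 1 genotype looked like a repeat deposit (chi-square over degrees of freedom from 15.3 to 50.2). *Becn1*, the targeted gene, stood at 118 ± 9.37 CPM (counts scaled to a common library size, SD, n = 3) in Becn1f/f and at 106.9 ± 2.74 CPM (SD, n = 3) in the libraries labelled Becn1f/f;Pf4-iCre, a log2 fold change of -0.15 (SE, the standard error, 0.12; adjusted p = 0.94 in edgeR's quasi-likelihood test, Benjamini-Hochberg adjustment). The genotypes overlapped in *Becn1*, so this gene does not check the labels. Gene counts can include exons outside the floxed stretch, but why *Becn1* differed so little was not tested. By quantitative PCR, the paper reports less *Becn1* mRNA in marrow cells sorted for the surface marker CD41, and no change in CD41-negative cells. The 16 listed MK and platelet markers took 0.0292% to 0.0387% of the counts per library, and the defining marker *Pf4* had only 35 to 117 counts (log2 fold change -1.01, past the thresholds given with the results), while *Itga2b*, the surface marker CD41, had 2397 to 3320; neutrophil markers took 0.933% to 1.69%. The 9 erythroid genes together took 0.0406% to 0.0623% in Becn1f/f and 0.0298% to 0.0406% in the libraries labelled Becn1f/f;Pf4-iCre. In RNA of many cells, fewer cells of a type and less RNA per cell cannot be told apart.

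RefSeq promoter sequence (GRCm38.p6) was matched by gene ID for 8 of the 9 genes, and the 250 bases before the start site are shown for the globins, for *Klf1*, for the membrane gene *Rhag* and for *Epor*, the gene whose level differed least between genotypes. The submitters' processing notes list GRCm39, so the positions given here belong to the RefSeq build and not to the deposited table. Capitals mark the letters AGATAA or TGATAA (forms of the motif that GATA factors read) and CCNCNCCC (a form of the motif that KLF1 reads) on either strand, and runs in capitals longer than a motif are overlapping matches. *Hbb-bs* (chr7:103827929-103828178, minus strand) and *Hbb-bt* (chr7:103813924-103814173, minus strand) lie in the beta globin cluster, *Hba-a1* (chr11:32283422-32283671, plus strand) in the alpha globin cluster, and *Klf1* (chr8:84901732-84901981, plus strand), *Rhag* (chr17:40810899-40811148, plus strand) and *Epor* (chr9:21963577-21963826, minus strand) elsewhere.
Hbb-bs: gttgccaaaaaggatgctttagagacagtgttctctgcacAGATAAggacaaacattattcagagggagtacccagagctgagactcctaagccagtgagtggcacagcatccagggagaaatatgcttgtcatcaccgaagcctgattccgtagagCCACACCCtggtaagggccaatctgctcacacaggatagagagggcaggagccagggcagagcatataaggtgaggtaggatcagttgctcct
Hbb-bt: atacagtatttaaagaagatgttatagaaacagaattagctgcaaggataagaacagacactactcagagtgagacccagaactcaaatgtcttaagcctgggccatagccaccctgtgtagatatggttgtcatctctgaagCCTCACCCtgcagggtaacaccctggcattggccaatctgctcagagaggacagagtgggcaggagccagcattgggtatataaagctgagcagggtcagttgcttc
Hba-a1: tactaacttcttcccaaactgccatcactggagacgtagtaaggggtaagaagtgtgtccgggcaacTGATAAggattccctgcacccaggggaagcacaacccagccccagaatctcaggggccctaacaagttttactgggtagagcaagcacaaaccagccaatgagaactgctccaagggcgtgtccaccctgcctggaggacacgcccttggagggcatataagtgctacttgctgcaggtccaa
Klf1: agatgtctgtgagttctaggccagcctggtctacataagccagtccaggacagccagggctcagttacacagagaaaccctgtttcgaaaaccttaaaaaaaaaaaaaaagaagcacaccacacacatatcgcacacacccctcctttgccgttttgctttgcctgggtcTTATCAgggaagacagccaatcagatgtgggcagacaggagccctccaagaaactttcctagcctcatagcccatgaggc
Rhag: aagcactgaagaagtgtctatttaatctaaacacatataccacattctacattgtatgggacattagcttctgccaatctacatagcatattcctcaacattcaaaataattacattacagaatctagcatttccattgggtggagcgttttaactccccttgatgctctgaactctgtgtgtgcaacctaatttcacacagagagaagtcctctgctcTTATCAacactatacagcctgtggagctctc
Epor: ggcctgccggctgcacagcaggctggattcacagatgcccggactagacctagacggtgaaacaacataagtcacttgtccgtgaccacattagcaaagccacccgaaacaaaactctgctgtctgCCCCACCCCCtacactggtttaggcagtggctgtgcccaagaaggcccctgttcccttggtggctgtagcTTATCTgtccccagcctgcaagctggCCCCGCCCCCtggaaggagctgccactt
AGATAA or TGATAA was present in 7 of the 8 promoters, *Hbb-bt* being without, against 16.6% of 32851 RefSeq promoters of the same length. CCNCNCCC, which can overlap the shorter CACCC, was present in 3 of the 8 (*Epor*, *Hbb-bs* and *Hbb-bt*), against 45.9% of all promoters. CACCC was present in 7 of the 8, against 52.0% of all, and CCAAT in 6 of the 8, against 33.8%. TATAAA was present in *Epb42*, *Ermap* and *Hbb-bt*, against 12.4% of all promoters. The beta globin pair was identical at 178 of 257 aligned positions (69.3%), with CCNCNCCC at -93 to -86 in *Hbb-bs* and at -107 to -100 in *Hbb-bt*, counted from the start site. These matches describe the letters in this window and no binding.

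All 9 genes had a lower fitted level in the libraries labelled Becn1f/f;Pf4-iCre, with log2 fold changes from -1.18 to -0.06 and a median of -0.71. Across all tested genes 54.5% were lower, with a median of -0.02. With the study's thresholds, a fold change of at least 1.5 and an unadjusted p under 0.05, 5 of the 9 were differentially expressed genes (DEGs), namely *Slc4a1*, *Ermap*, *Klf1*, *Rhag* and *Hba-a1*, against 0.938% of all tested genes called in that direction. With DESeq2, the test that the study's methods name, the same thresholds called 2 of the 9, *Slc4a1* and *Ermap*. None of the 9 was a DEG in the other direction, against 1.36% of all tested genes, and 2.3% were called in either. The same 5 were the genes whose genotypes did not overlap in CPM, against 5.18% of all tested genes that were lower without overlap and 10.6% without overlap in either direction. After adjustment over all tested genes edgeR called 0 of the 9, where 7 had an unadjusted p under 0.05, and DESeq2 called 1, *Slc4a1*. Over all tested genes, edgeR called 0.0408% after adjustment, and 2.39% were lower with an unadjusted p under 0.05. DESeq2 called 0.0172% of its tested genes lower at that level. An exact permutation test of 3 libraries against 3 cannot give a p below 0.1. Since the 9 genes were chosen with earlier results known, these counts and shares describe them and do not test them as a set.

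**Figure D1:**
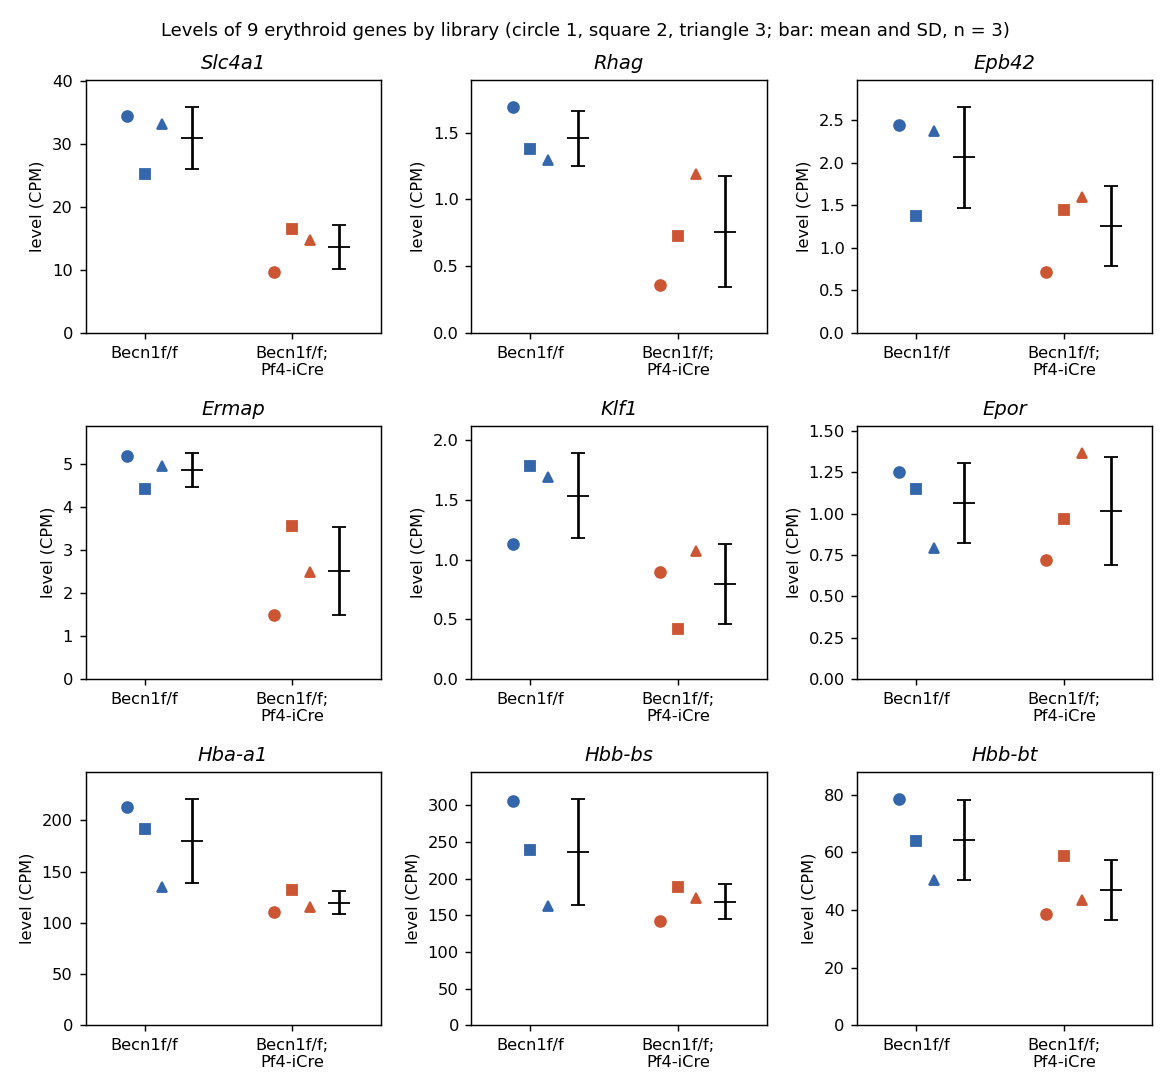
Level (CPM, linear axis from 0) of each of the 9 erythroid genes in the 3 Becn1f/f libraries (blue) and the 3 libraries labelled Becn1f/f;Pf4-iCre (red), with the mean and SD beside the points. The genotypes are apart for *Slc4a1*, *Rhag*, *Ermap*, *Klf1* and *Hba-a1* and overlap for *Epb42*, *Epor*, *Hbb-bs* and *Hbb-bt*.

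Among the membrane genes, *Slc4a1*, which encodes the anion exchanger band 3, had the widest gap. Its levels were 34.4, 25.3 and 33.1 CPM in Becn1f/f 1, 2 and 3, and 9.65, 16.5 and 14.8 CPM in the libraries labelled Becn1f/f;Pf4-iCre 1, 2 and 3. Every library labelled Becn1f/f;Pf4-iCre was below every Becn1f/f library, and the mean was 44.1% of that in Becn1f/f. The log2 fold change was -1.18 (SE 0.20; edgeR's test, adjusted p = 0.089; exact two-sided permutation test, p = 0.1). The gene ranked 13 among all tested genes by p, and it was called a DEG in 18 of 18 alternatives that kept the fold and unadjusted p thresholds. With adjusted p under 0.05 as the threshold it was not called in the main edgeR fit. In edgeR's test its adjusted p was 0.031 with no count filter and 0.037 with the replicate block. Its log2 fold change was -1.34 to -0.98 in the fits that each dropped 1 library. Its adjusted p ranged from 6.6e-05 with DESeq2 to 0.49 with limma on log2(FPKM + 1).

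*Ermap* encodes an immunoglobulin superfamily protein of the erythroid membrane that carries the Scianna blood group in humans. It stood at 5.20, 4.43 and 4.97 CPM in Becn1f/f 1, 2 and 3 and at 1.498, 3.56 and 2.49 CPM in the libraries labelled Becn1f/f;Pf4-iCre 1, 2 and 3. The Becn1f/f libraries lay close together, at 4.87 ± 0.398 CPM (SD, n = 3), and the others were lower and more spread, at 2.52 ± 1.03 CPM (SD, n = 3). The log2 fold change was -0.95 (SE 0.29; edgeR's test, adjusted p = 0.45).

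*Rhag* encodes the Rh-associated glycoprotein, without which the Rh complex does not reach the cell surface. It rested on 27, 24 and 23 counts in Becn1f/f 1, 2 and 3 and on 6, 12 and 20 counts in the libraries labelled Becn1f/f;Pf4-iCre 1, 2 and 3. The genotypes did not overlap in CPM, but the nearest libraries, at 1.30 and 1.19 CPM, were within counting error, and the exact 95% Poisson interval of the lowest count reached from 2.20 to 13.1. The log2 fold change was -0.93 (SE 0.40; edgeR's test, adjusted p = 0.75), and DESeq2 did not call it (unadjusted p = 0.075). It lay between -1.41 and -0.60 in the fits that each dropped 1 library, and the DEG call held without Becn1f/f 3 or Becn1f/f;Pf4-iCre 3 and was lost without any of the other 4.

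*Epb42* encodes protein 4.2, which ties band 3 to the spectrin skeleton. Its levels were 2.45, 1.38 and 2.37 CPM in Becn1f/f 1, 2 and 3 and 0.719, 1.45 and 1.603 CPM in the libraries labelled Becn1f/f;Pf4-iCre 1, 2 and 3. Becn1f/f 2 lay between the other genotype's values, so the groups overlapped. The log2 fold change of -0.71 (SE 0.36; edgeR's test, unadjusted p = 0.073; exact permutation test, p = 0.3) did not pass, and without Becn1f/f 2 the gene was a DEG at -0.93.

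The globins were the most abundant of the 9 genes per transcript length. In FPKM, the authors' level scaled for transcript length, the Becn1f/f means were 738.5 ± 161.7 for *Hba-a1*, 733.3 ± 217.5 for *Hbb-bs* and 205.4 ± 43.1 for *Hbb-bt* (SD, n = 3 each), and these SDs leave the levels of *Hba-a1* and *Hbb-bs* indistinguishable. Next came *Slc4a1* at 7.33 ± 1.115 FPKM, *Klf1* at 1.34 ± 0.336 and *Ermap* at 1.21 ± 0.117 FPKM (SD, n = 3 each). *Rhag*, *Epor* and *Epb42* lay at 0.800 ± 0.195, 0.657 ± 0.145 and 0.583 ± 0.160 FPKM (SD, n = 3 each), and *Klf1* and *Ermap*, like these last genes among themselves, did not differ beyond their spread. In the libraries labelled Becn1f/f;Pf4-iCre the globins were at 494.2 ± 76.1, 526.1 ± 101.9 and 151.0 ± 40.9 FPKM in the same order, with *Slc4a1* at 3.22 ± 0.897 FPKM (SD, n = 3 each), and the order of *Hba-a1* and *Hbb-bs* turned within their spread.

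*Hba-a1*, an adult alpha globin gene, stood at 213 CPM, 192 CPM and 135 CPM in Becn1f/f 1, 2 and 3 and at 111 CPM, 132 CPM and 116 CPM in the libraries labelled Becn1f/f;Pf4-iCre 1, 2 and 3. The groups were separated only by the small gap between Becn1f/f 3 and Becn1f/f;Pf4-iCre 2. The log2 fold change was -0.59 (SE 0.17; edgeR's test, adjusted p = 0.44), a fold of 1.502 that barely met the limit of 1.5, and 14 of 19 alternatives put the gene outside the DEG thresholds. Among the fits short of 1 library it stayed a DEG without Becn1f/f 3 (-0.76) or Becn1f/f;Pf4-iCre 2 (-0.66). Its counts are uncertain because its neighbor *Hba-a2* shares much of its sequence: 56.5% of the 100-base stretches of the *Hba-a1* transcript occur in the *Hba-a2* transcript. With both copies summed, the log2 fold change was -0.57.

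The beta globin genes overlapped between the genotypes. *Hbb-bs*, the adult beta globin gene given more counts in these libraries, had 306 CPM, 239 CPM and 163 CPM in Becn1f/f 1, 2 and 3, and 143 CPM, 189 CPM and 174 CPM in the libraries labelled Becn1f/f;Pf4-iCre 1, 2 and 3. *Hbb-bt* had 78.4 CPM, 64.0 CPM and 50.5 CPM in Becn1f/f 1, 2 and 3, and 38.7 CPM, 58.7 CPM and 43.5 CPM in the others. In each gene, Becn1f/f 3 was below at least 1 library of the other genotype. Their log2 fold changes of -0.49 (SE 0.21) and -0.45 (SE 0.19) were short of 1.5-fold, each with an unadjusted p of 0.036 and an adjusted p of 0.74 in edgeR's test. The *Hbb-bs* transcript shares 62.6% of its 100-base stretches with *Hbb-bt*, and the pair summed gave a log2 fold change of -0.48. Without Becn1f/f 3 both genes were DEGs, at -0.70 and -0.60, without Becn1f/f;Pf4-iCre 2 *Hbb-bt* was one at -0.65, and without Becn1f/f 1 they were at -0.25 and -0.28.

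*Klf1*, the regulator, rested on 18, 31 and 30 counts in Becn1f/f 1, 2 and 3 and on 15, 7 and 18 counts in the libraries labelled Becn1f/f;Pf4-iCre 1, 2 and 3. In CPM these were 1.13, 1.78 and 1.69 against 0.899, 0.422 and 1.07, so the genotypes were separated by a gap of under 0.1 CPM between Becn1f/f 1 and Becn1f/f;Pf4-iCre 3. Both of these libraries had 18 counts, so that gap came only from the scaling of library size and lay within counting error. The log2 fold change was -0.94 (SE 0.38; edgeR's test, adjusted p = 0.71), and DESeq2 did not call it (unadjusted p = 0.063). It lay between -1.21 and -0.64 in the fits short of 1 library, and the DEG call was lost without Becn1f/f 2, Becn1f/f 3 or Becn1f/f;Pf4-iCre 2.

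*Epor* was the exception among the 9 genes. Its counts were 20, 20 and 14 in Becn1f/f 1, 2 and 3 and 12, 16 and 23 in the libraries labelled Becn1f/f;Pf4-iCre 1, 2 and 3, with the highest and the lowest library in the same genotype. The levels were 1.07 ± 0.243 and 1.02 ± 0.327 CPM (SD, n = 3 each), the log2 fold change was -0.06 (SE 0.36; edgeR's test, adjusted p = 0.99), and its sign turned in 4 of 17 alternatives. An interval of 2 standard errors reached from -0.78 to 0.66, so at this depth *Epor* could not be told apart from a change of the size fitted for *Hba-a1*.

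**Figure D2:**
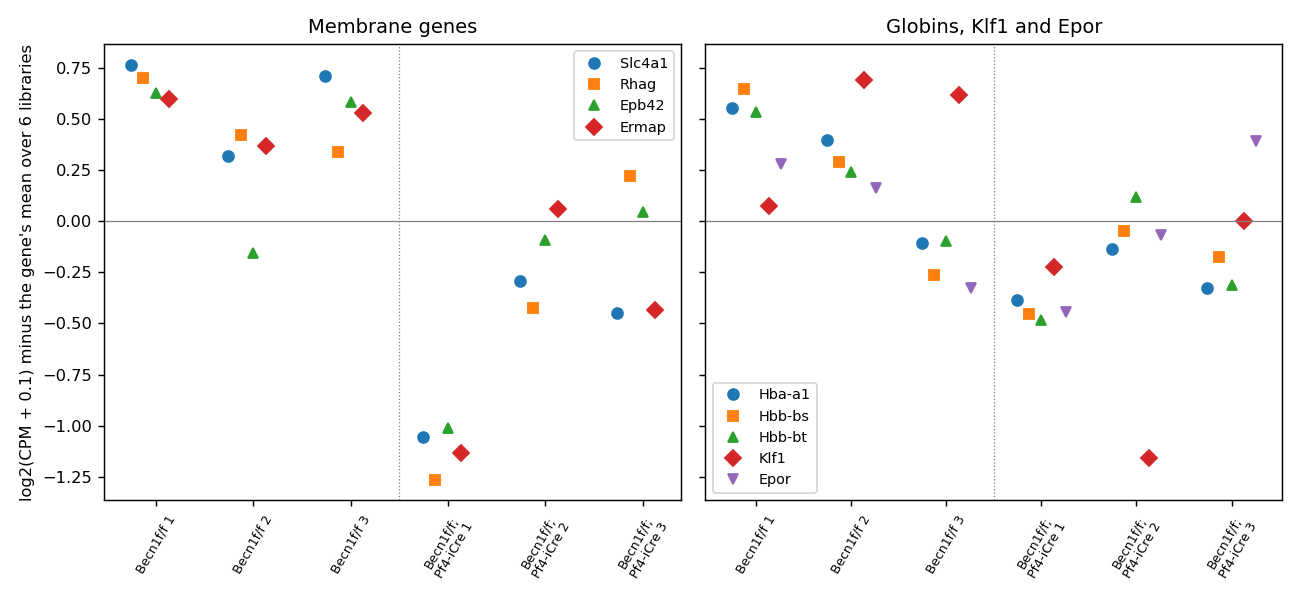
Each point is the log2(CPM + 0.1) of a gene minus that gene's mean over the 6 libraries, with membrane genes on the left and globins, *Klf1* and *Epor* on the right. The membrane genes sit near -1 in Becn1f/f;Pf4-iCre 1, and the globins are below 0 in Becn1f/f 3, where *Slc4a1*, *Ermap* and *Epb42* are above 0.5.

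The 9 genes did not vary among libraries in a single way. Becn1f/f;Pf4-iCre 1 was the lowest library for 8 of the 9 genes, *Klf1* being lowest in Becn1f/f;Pf4-iCre 2. The membrane genes lay 1.26 to 1.01 below their own mean there on the log2 scale, and the globins 0.48 to 0.39 below. Becn1f/f 3 was high for *Slc4a1* (0.71 above its mean), *Ermap* (0.53) and *Epb42* (0.58) but below the mean for *Hba-a1* (-0.11), *Hbb-bs* (-0.26) and *Hbb-bt* (-0.10). Without Becn1f/f;Pf4-iCre 1, 3 of the 9 genes were DEGs (*Ermap*, *Klf1* and *Slc4a1*) and the median log2 fold change was -0.54.

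Proportions within a library do not depend on the scaling of library size. Against the summed counts of *Hba-a1*, *Hba-a2*, *Hbb-bs* and *Hbb-bt*, *Slc4a1* had 47.3, 41.2 and 78.1 counts per 1000 globin counts in Becn1f/f 1, 2 and 3, and 26.6, 35.4 and 36.9 in the libraries labelled Becn1f/f;Pf4-iCre 1, 2 and 3. The genotypes did not overlap, and Becn1f/f 3 stood far above the rest. *Epor* had 3.64, 4.56 and 2.39 counts per 100 *Slc4a1* counts in Becn1f/f 1, 2 and 3, and 7.45, 5.86 and 9.24 in the others, again without overlap. The proportions among globins overlapped: the ratio of alpha to beta globin (summed FPKM, *Hba-a1* and *Hba-a2* over *Hbb-bs* and *Hbb-bt*) was 1.26 ± 0.0751 against 1.19 ± 0.0912 (SD, n = 3 each), and that of *Hbb-bs* to *Hbb-bt* was 3.53 ± 0.346 against 3.54 ± 0.376 (SD, n = 3 each). These proportions are given with no test, since the genes were chosen with their values known.

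**Figure D3:**
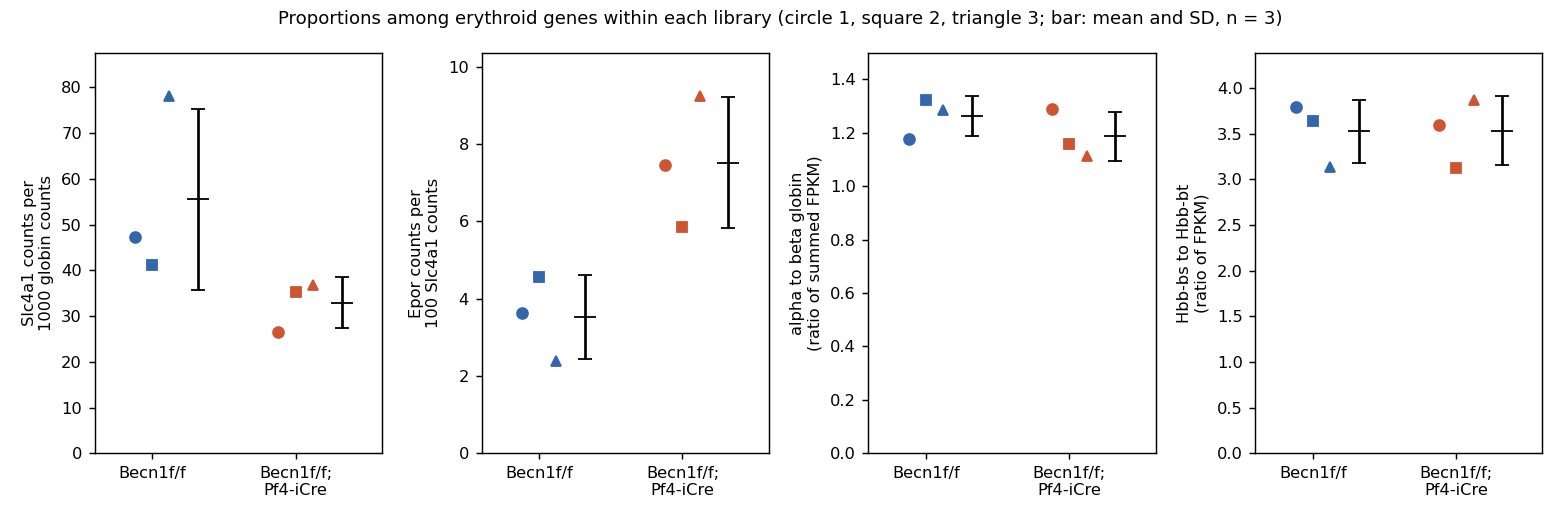
Ratios among erythroid genes within each library (linear axes from 0), with the mean and SD beside the 3 points of each genotype. *Slc4a1* per 1000 globin counts is lower and *Epor* per 100 *Slc4a1* counts higher in the libraries labelled Becn1f/f;Pf4-iCre, and both globin ratios overlap. The nearest *Epor* ratios of the genotypes are within counting error.

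Other erythroid genes were read from lists written by role, with 79 genes tested of 84 found in the table. Of these, 8 were DEGs, all lower in the libraries labelled Becn1f/f;Pf4-iCre, where 0.938% of all tested genes were called lower, and 58 had a log2 fold change below 0, with a median of -0.10. Adjusted over all tested genes, edgeR and DESeq2 each called 0 of them, against 17 and 16 with an unadjusted p under 0.05. Of the 17 in edgeR, 15 were lower and 2 higher. Among all 12256 tested genes, 293 (2.39%) were lower and 480 higher at that level.

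The membrane and skeleton list held 5 of the 8 DEGs among 18 tested genes, their median being -0.35. Of the 18, 7 were lower and 3 higher without overlap. Among all tested genes 5.18% were lower without overlap, and 10.6% did not overlap in either direction. *Rhd*, the Rh protein that pairs with *Rhag*, had 1.63, 1.73 and 2.20 CPM in Becn1f/f 1, 2 and 3 and 0.480, 0.784 and 1.19 CPM in the others, a log2 fold change of -1.17 (SE 0.36). *Ank1*, the ankyrin that links band 3 to spectrin, had 4.77, 4.601 and 7.62 CPM against 1.68, 3.32 and 2.97 CPM, a log2 fold change of -1.09 (SE 0.30). Neither gene overlapped between the genotypes, but the nearest *Rhd* libraries, at 26 and 20 counts, were within counting error. *Kel*, the Kell blood group metalloprotease, and *Add2*, which encodes beta adducin of the skeleton, had log2 fold changes of -0.89 (SE 0.32) and -0.87 (SE 0.30) and did not overlap either. Their nearest libraries, at 29 and 25 counts for *Kel* and 27 and 20 for *Add2*, were also within counting error. The *Kel* call was lost without Becn1f/f 3 (-0.71) or Becn1f/f;Pf4-iCre 1 (-0.67), and the *Add2* call without Becn1f/f 3 or Becn1f/f;Pf4-iCre 2 (both -0.75). Adjusted p of these 4 genes lay between 0.39 and 0.59 in edgeR's test. Genes of the list that many blood cells express, such as *Stom* at 254 CPM and *Epb41* at 193 CPM in Becn1f/f, were chosen here after their values were seen and had log2 fold changes of 0.26 and -0.04. *Stom* was higher without overlap, and *Epb41* overlapped.

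In the globin list only *Hba-a2* was tested, at -0.53 (SE 0.19; edgeR's test, adjusted p = 0.59), and it overlapped between the genotypes; the embryonic *Hbb-y* and the theta-like *Hbq1a* and *Hbq1b* were below the filter. Among 16 other erythroid regulators none was a DEG, and the median was -0.08. *Klf3*, which encodes a repressor related to KLF1, had 67.9, 84.4 and 79.0 CPM in Becn1f/f 1, 2 and 3 and 97.8, 112.6 and 104.6 CPM in the others, higher without overlap, with a log2 fold change of 0.45 (SE 0.13; edgeR's test, adjusted p = 0.45). *Gata1*, which erythroid cells and MKs share, had 21.9, 15.9 and 19.6 CPM against 13.8, 13.5 and 14.9 CPM, lower without overlap, with a log2 fold change of -0.44 (SE 0.16; edgeR's test, adjusted p = 0.60). Both were short of 1.5-fold.

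Of 15 tested genes of Epo receptor signalling none was a DEG, and their median was -0.01. *Lyn*, a kinase that acts below the receptor and is abundant in myeloid cells, had 338 CPM, 336 CPM and 337 CPM in Becn1f/f 1, 2 and 3 and 448 CPM, 462 CPM and 430 CPM in the others, higher without overlap at a log2 fold change of 0.41 (SE 0.12; edgeR's test, adjusted p = 0.45). *Bcl2l1*, whose product BCL-XL keeps erythroblasts alive, was at -0.28 (SE 0.14). In the list of heme synthesis and iron uptake, 1 of 16 genes was a DEG, *Alas2*, the erythroid enzyme that starts heme synthesis, at -0.64 (SE 0.245), with 20.2, 12.9 and 14.9 CPM against 6.83, 13.5 and 10.5 CPM and an overlap of the genotypes. The *Alas2* call was lost without Becn1f/f 1 (-0.43), without Becn1f/f;Pf4-iCre 1 (-0.41) and after correction for GC content and length (-0.57, unadjusted p = 0.064 in edgeR's test). Among 13 tested late erythroid genes, *Car1*, an erythroid carbonic anhydrase, was at -1.16 (SE 0.30; edgeR's test, adjusted p = 0.34) and *Trim10*, a factor of terminal erythroid maturation, at -0.86 (SE 0.30). These 2 did not overlap and were the DEGs of that list, and its median was -0.10. The *Trim10* call was lost without Becn1f/f 3 (-0.66) or Becn1f/f;Pf4-iCre 1 (-0.68).

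**Figure D4:**
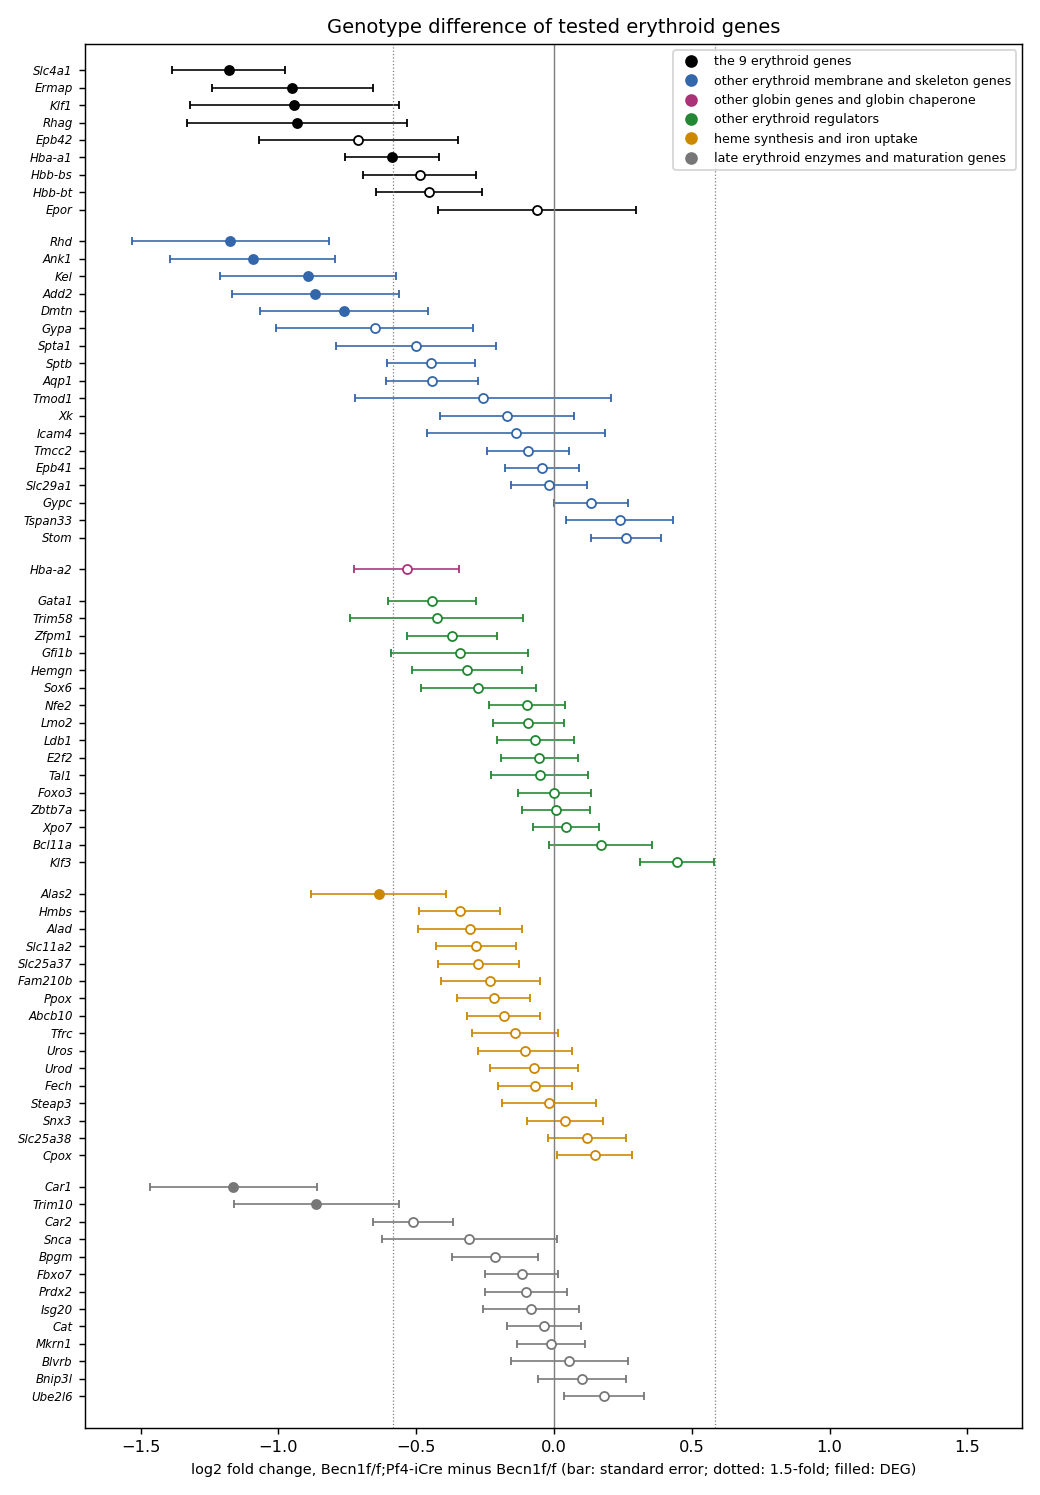
Log2 fold change with its standard error for the 9 erythroid genes and for 64 tested genes of 5 other erythroid lists (the Epo receptor signalling list is not drawn), with filled points for DEGs and dotted lines at 1.5-fold. All filled points lie on the lower side, from -1.18 to -0.59, and *Epor* sits at -0.06.

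By root mean square distance between centred log2 profiles over the 6 libraries, the 8 tested genes most like the median profile of the 9 were *Ces2g* (0.15), *Prr22* (0.15), *Cited4* (0.15), *Mrgpra2a* (0.16), *Olfml2b* (0.16), *Arhgef5* (0.16), *Auts2* (0.17) and *Gm13420* (0.17). *Olfml2b* was the most abundant of them at 22.5 CPM on average, and the others lay between 0.939 and 3.45 CPM. None of the 8 was on an erythroid list, and of the 9 genes themselves *Hba-a1* was nearest to the median profile, at 0.20, and *Klf1* farthest, at 0.54.

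Markers of other cells were read from the same libraries, and among their sums only those of macrophage markers were apart between the genotypes. For scale, 54.5% of all tested genes were lower in the libraries labelled Becn1f/f;Pf4-iCre, 0.938% were DEGs lower there and 1.36% DEGs higher. An unadjusted p under 0.05 with a lower level was found for 2.39% of all tested genes, and 5.18% were lower without overlap. Of 14 tested macrophage markers, 12 were higher in the libraries labelled Becn1f/f;Pf4-iCre and 4 were DEGs in that direction, their median being 0.36, and the summed counts of all 16 listed took 0.0789% to 0.0804% in Becn1f/f and 0.0832% to 0.0967% in the others, with *Marco* at 2 counts or fewer. *Csf1r* and *Adgre1*, with the most counts of that list, overlapped between the genotypes, at log2 fold changes of 0.26 and 0.0015. Of the 14, 5 were higher without overlap, against 10.6% of all tested genes without overlap in either direction. Of 16 neutrophil markers, 15 were lower, 7 of them with an unadjusted p under 0.05 and 5 without overlap of the genotypes (*Mpo*, *Elane*, *Prtn3*, *Lcn2* and *Fcnb*, named after their values were seen), and 1 was a DEG. Their median log2 fold change was -0.42, and their sums of 1.26% to 1.69% and 0.933% to 1.29% overlapped. The MK and platelet markers had 9 of 14 tested genes lower, 1 DEG (*Pf4*) and overlapping sums, 0.0292% to 0.0387% and 0.0299% to 0.0366%. Early progenitor markers overlapped too, at 0.0601% to 0.0825% and 0.0669% to 0.0746%, with 6 of 8 lower and 1 DEG, which was higher. B cell markers (12 of 13 tested lower, 1 DEG) took 0.0209% to 0.0364% and 0.0204% to 0.0271%, T and NK cell markers (5 of 9 lower, 0 DEGs, 1 with an unadjusted p under 0.05) 0.00676% to 0.00833% and 0.00562% to 0.00712%. Mast cell, basophil and eosinophil markers (9 of 12 lower, 0 DEGs and 0 with an unadjusted p under 0.05) took 0.534% to 1.01% and 0.412% to 0.647%, and endothelial and stromal markers (3 of 8 lower, 1 DEG in each direction) 0.0129% to 0.0153% and 0.0123% to 0.0149%. The 12 listed erythroid markers, 6 of them among the 9 genes, took 0.00728% to 0.00933% in Becn1f/f and 0.00371% to 0.00584% in the others, without overlap. *Ahsp* of that list was not analysed here. The part of these mixtures in the erythroid differences was not tested.

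**Figure D5:**
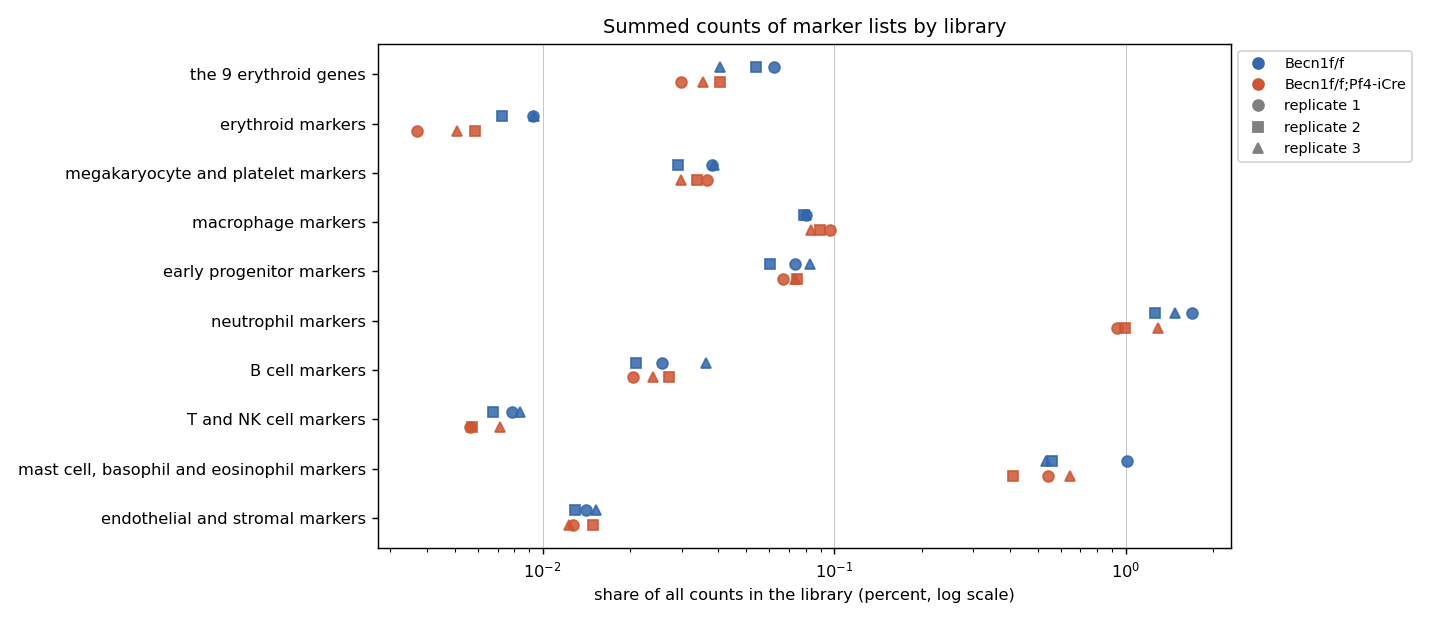
Share of all counts (percent, log axis) taken by the summed counts of each marker list in each library, blue for Becn1f/f and red for the libraries labelled Becn1f/f;Pf4-iCre. Erythroid markers are lower and macrophage markers higher in the libraries labelled Becn1f/f;Pf4-iCre without overlap, and the sums of the 9 erythroid genes overlap narrowly, near 0.0406%.

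Fold changes of all tested genes followed the GC content of their transcripts (Spearman's rho -0.34, a description over genes, not replicates). The transcripts of the 9 genes had 42.2% (*Rhag*) to 61.1% (*Klf1*) GC, against a median of 50.6% over the tested genes. After correction for GC content and transcript length, *Slc4a1* was at -1.09, *Hba-a1* at -0.48 and *Epor* at 0.0725, and 4 of the 9 genes were DEGs (*Ermap*, *Klf1*, *Rhag* and *Slc4a1*).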

How the data were processed

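RNA labelled as MKs sorted from bone marrow was sequenced in 6 libraries, 3 per genotype, grouped by their titles. Per the study's methods, low-quality reads were removed and the rest aligned with HISAT, and the submitters' processing notes also list Bowtie2 and GRCm39. The counting tool and annotation are not given in the sources used here. The authors deposited estimated counts, of which 10.3% to 11.3% in each library had decimals. The authors also deposited FPKM, which corrects for depth and gene length. Not used were 16 other columns holding values of single samples, 4 of them of 1 library that matches no sample mapped here, and 8 of group means.

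Estimated counts were rounded, filtered with edgeR's expression filter, and scaled by TMM, and the genotypes were compared over all genes by the quasi-likelihood test of edgeR 4.0.16 (R 4.3.3), with genotype as the single term and p-values adjusted by Benjamini-Hochberg. Standard errors were taken from the fold change and its F statistic (their quotient, F under a square root). DEGs have a fold change of at least 1.5 and an unadjusted p under 0.05, as in the study's methods. Totals of 16467560 to 17156728 per library give the depth, and intervals cover counting error only. GC content and length came from GENCODE M21 transcripts matched by gene ID for 12025 of 12256 tested genes. The steps were tested on simulated data.

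The 9 genes and all lists were chosen with earlier results of these data known. The genes named are the 9, up to 4 DEGs per other erythroid list (or, where a list has none, the 2 with the smallest p), the 8 nearest profiles and *Becn1*; others were chosen after their values were seen. Profiles used log2(CPM + 0.1). Alternatives were DESeq2 1.42.0, its size factors, upper-quartile scaling, library sizes without globins, no count filter, a minimum of 10 counts in all samples, the replicate block, limma 3.58.1 (voom, or log2(FPKM + 1) with or without a mean FPKM of 1, or log2(FPKM + 0.1)), the GC and length correction, adjusted p as the threshold, summed copies and leaving out each library.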

Additional observations from a re-analysis of the deposited data

How the results depend on the processing

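Of the 9 erythroid genes, 5 were DEGs in edgeR, and 4 or 5 with DESeq2's size factors, upper-quartile scaling, library sizes without globins, no count filter, limma-voom, log2(FPKM + 0.1) and the GC and length correction. DESeq2 gave 2 (*Slc4a1* and *Ermap*), at least 10 counts in every sample gave 3 of 7 tested, limma on log2(FPKM + 1) gave 1, also when only genes with a mean FPKM of 1 or more entered, adjusted p under 0.05 gave 0, and leaving out each library gave 3 to 6, with 3 without Becn1f/f 1, Becn1f/f 2 or Becn1f/f;Pf4-iCre 1. *Slc4a1* and *Ermap* were DEGs in all 6 of these fits. *Epor* turned to 0.0725 with the GC and length correction and ranged from -0.33 to 0.14 over the fits short of 1 library, above 0 in 3 of these fits (0.0759 without Becn1f/f 1, 0.0023 without Becn1f/f 2 and 0.14 without Becn1f/f;Pf4-iCre 1). The 8 DEGs of the other erythroid lists became 2 and 3 with log2(FPKM + 1) without and with the filter and 0 by adjusted p, and 5 to 11 when each library was left out, the lowest without Becn1f/f;Pf4-iCre 1. Over all genes the 282 DEGs (115 lower) became 121 (33 lower) and 137 (41 lower) with log2(FPKM + 1), 432 (216 lower) with log2(FPKM + 0.1), 5 (0 lower) by adjusted p, and 225 to 410 when each library was left out. The causes were not tested.

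Both genotypes use replicate numbers 1 to 3, and the deviations of same-numbered libraries from their genotype means correlated at 0.07, -0.27 and 0.20 for numbers 1, 2 and 3, so the numbers were not taken as pairs. Single genes can still follow the number: *Cish*, singled out after its values were seen, had 516, 387 and 214 counts in Becn1f/f 1, 2 and 3 and 514, 361 and 231 in the others. It was not alone: *Socs3*, *Gab1* and *Gzmb*, picked the same way, also fell from number 1 to 3 in both genotypes. With the replicate block 4 of the 9 genes, 8 genes of the other erythroid lists and 296 of all genes were DEGs, *Hba-a1* was at -0.56 and short of 1.5-fold, and *Slc4a1* had an adjusted p of 0.037. Counts of 6 to 31 per library limit what could be seen in *Rhag*, *Klf1* and *Epor*. Low counts, from 8 to 51 per library, limit *Rhd*, *Kel* and *Add2* too.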
